A study of Mus musculus with 4 samples.

Results

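ATP-binding cassette (ABC) transporter genes were examined in Met-low and Met-high cells of B16-F10, a mouse melanoma line derived from skin. An ABC gene was taken as any gene with a RefSeq symbol from *Abca* to *Abcg* followed by a digit, and it was represented by the probe with the highest mean log2 signal over the 4 arrays. Of 50 such genes in the RefSeq table, 49 had a probe among the 20832 genes with a named probe, and *Abca16* had none. B16-F10 cells had been sorted by the amount of the receptor Met on the cell surface, the sorted Met-low and Met-high cells were cultured separately for 3 days, with no drug or ligand named, and total RNA, prepared independently 2 times per population, was hybridised to 1-colour Agilent arrays. Both populations came from a single cell line, and sorting was by surface protein, so the purity of each population at day 3 is not known from the arrays. Met-low took positions 1 and 2 and Met-high positions 3 and 4 of 1 slide, and an effect of position cannot be told apart from one of population.

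ABC proteins bind and hydrolyse ATP, and most of them use that energy to move a substrate across a membrane. Subfamilies B, C and G hold the drug efflux pumps known from multidrug resistance of tumours, subfamilies A and G move lipids and sterols, and several members of subfamilies B and D work in mitochondria, lysosomes or peroxisomes, where their products pair up to form a transporter. Members of subfamilies E and F have no membrane domains and act on ribosomes. In melanoma the efflux pumps have drawn most attention, because the tumour responds poorly to cytotoxic drugs.

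The start regions of *Abca8b*, *Abcg2* and *Abca12* are shown because these 3 ABC genes passed the test between the populations. Each is 300 bases long, from 250 bases before to 50 bases after an annotated start, read 5′ to 3′ on the strand of the gene from RefSeq on GRCm38.p6. The *Abca8b* region is chr11:109995796-109996095 on the minus strand, the *Abcg2* region is chr6:58640296-58640595 on the plus strand and the *Abca12* region is chr1:71414861-71415160 on the minus strand. Capitals mark matches on either strand to CACGTG and CATGTG, E-box motifs of the kind bound by the melanocyte factor Mitf, and to GGGCGG, the GC box bound by Sp1.
Abca8b: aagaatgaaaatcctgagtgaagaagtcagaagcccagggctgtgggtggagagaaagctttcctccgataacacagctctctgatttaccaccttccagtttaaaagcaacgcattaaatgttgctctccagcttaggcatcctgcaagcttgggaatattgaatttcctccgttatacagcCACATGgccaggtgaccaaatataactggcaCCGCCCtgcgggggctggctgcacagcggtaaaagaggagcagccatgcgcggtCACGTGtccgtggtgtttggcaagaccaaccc
Abcg2: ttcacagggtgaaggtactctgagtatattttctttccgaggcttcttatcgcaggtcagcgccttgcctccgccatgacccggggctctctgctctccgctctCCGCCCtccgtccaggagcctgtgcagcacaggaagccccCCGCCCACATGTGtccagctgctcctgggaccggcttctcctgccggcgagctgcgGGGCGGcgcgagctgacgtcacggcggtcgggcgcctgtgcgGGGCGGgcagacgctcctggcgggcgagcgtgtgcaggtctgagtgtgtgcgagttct
Abca12: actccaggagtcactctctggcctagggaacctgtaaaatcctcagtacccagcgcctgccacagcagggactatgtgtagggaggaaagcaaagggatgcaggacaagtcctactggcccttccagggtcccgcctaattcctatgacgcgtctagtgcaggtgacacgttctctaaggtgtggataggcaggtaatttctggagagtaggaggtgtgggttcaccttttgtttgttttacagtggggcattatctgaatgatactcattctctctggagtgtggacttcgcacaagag

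The *Abca8b* region held 1 match to each motif, at 18 bases from the start for CACGTG, at -67 for CATGTG and at -36 for GGGCGG. The region shown for *Abcg2* held 4 matches to GGGCGG and 2 to CATGTG, and the CATGTG matches, 1 on each strand, overlapped each other and shared a base with a GGGCGG match. It is the most downstream of the 3 annotated starts of *Abcg2*. Of the starts further upstream, not shown, the first held no match and the next held 2 matches to GGGCGG. The *Abca12* region held none of these letters. Over 32851 promoters of the same length, 7.15% held CACGTG, 14.2% CATGTG and 35.7% GGGCGG. Among 45 promoters of 38 ABC genes, 6, 6 and 21 held them, respectively. The matches describe the sequence, and binding was not measured.

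Signals are log2 intensities after subtraction of the array's 75th percentile, and a log2 ratio is the Met-high mean minus the Met-low mean, so that negative ratios stand for a higher signal in Met-low cells. A gene was called if its adjusted p was under 0.05 in limma, which borrows the spread between replicates across genes. At most 53.6% of the 43020 spots that are not controls were well above background on an array, 0 were saturated, and replicates of a population correlated at 0.990 over genes. The 7 melanocyte markers *Tyr*, *Tyrp1*, *Dct*, *Pmel*, *Mlana*, *Mitf* and *Sox10* were well above background on all 4 arrays and 0 of them were called, with 1 at an unadjusted p under 0.05 from limma. The sorting target itself overlapped between the populations, with *Met* at -0.26 and -0.89 in Met-low and at 1.03 and -0.43 in Met-high (log2 ratio 0.87, standard error 0.51, limma, Benjamini-Hochberg adjusted p = 0.333). Fewer cells of a kind and less RNA per cell cannot be told apart in these bulk samples, and the precision throughout is that of 2 arrays a population.

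Of the 49 ABC genes, 29 were well above background on all 4 arrays and entered the comparison. No ABC gene entered it through a single population. The probes of 17 genes were well above background on no array: *Abca6*, *Abca8a*, *Abca9*, *Abca13*, *Abca14*, *Abcb1a*, *Abcb5*, *Abcb11*, *Abcc2*, *Abcc3*, *Abcc6*, *Abcc12*, *Abcd2*, *Abcg1*, *Abcg3*, *Abcg5* and *Abcg8*. These included the bile salt pump *Abcb11*, the canalicular pump *Abcc2* and the sterol pair *Abcg5* and *Abcg8*, which are known from the liver. Another 3 genes were well above background on 1 Met-low array each and were not compared. *Abca15* reached -3.02 on Met-low replicate 2 and lay between -7.48 and -6.89 on the other arrays. *Abcc9*, the sulfonylurea receptor of muscle, reached -3.29 on the same array and lay between -7.29 and -6.51 elsewhere. *Abca4*, the retinal transporter of photoreceptors, was at -4.49 on Met-low replicate 1 and between -6.08 and -5.27 elsewhere. *Abca15* and *Abcc9* each stood out on a single array, while the values of *Abca4* were spread about evenly. The arrays of *Abca4* and *Abca15* did not overlap between the populations, and those of *Abcc9* did. The lowest signal well above background on an array was between -5.25 and -4.59.

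Limma called 3 of the 29 genes at an adjusted p under 0.05, the lipid carrier gene *Abca8b* and the drug efflux pump gene *Abcg2*, which were lower in Met-high cells, and the lipid carrier gene *Abca12*, which was higher. Of all 11957 genes compared, 3.8% were called higher in Met-low and 1.9% higher in Met-high, and 5.7% were called in either direction. These were 454 and 227 genes, and 614 and 145 when the 75th percentile came from detected probes. That scaling shifted the median of all log2 ratios from 0.10 to -0.05, and *Abca8b*, *Abcg2* and *Abca12* were called with it too. By a 2-fold difference of the means without a test, *Abca8b* was the only ABC gene higher in Met-low and *Abca12* the only one higher in Met-high, where 5.31% and 2.43% of all genes passed. The median log2 ratio of the 29 ABC genes was 0.11, beside 0.10 over all genes compared, and the median size of the ratio without its sign was 0.276, beside 0.297. A typical ABC gene thus differed between the populations by about as much as a typical gene of the array, with *Abca8b* and *Abca12* at the ends of the ABC genes. At an unadjusted p under 0.05 from limma, 3 ABC genes were higher in Met-low and 4 in Met-high, where 11.9% and 14.3% of all genes were. Among the 29 ABC genes, 4 were without overlap and higher in Met-low, against 22.6% of all genes, and 9 were without overlap and higher in Met-high, against 35.7%. Of the 29 genes, 10 had the higher mean in Met-low and 19 in Met-high, as had 40.5% and 59.5% of all genes.

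**Figure D1:**
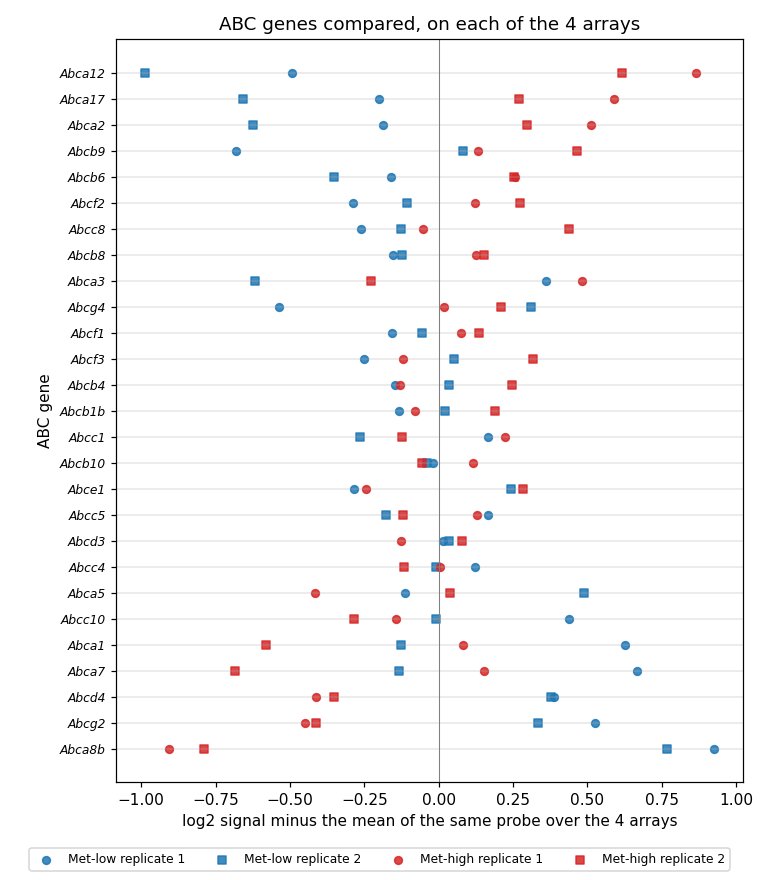
Log2 signal of 27 of the ABC genes compared, on each of the 4 arrays, minus the mean of the same probe over the arrays (horizontal axis, log2 units). Circles and squares are replicates 1 and 2, blue is Met-low and red is Met-high. *Abca12* at the top has both red points to the right of both blue points, *Abca8b* at the bottom has the reverse, and for 14 of the 27 genes the colours overlap.

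*Abca8b*, a transporter of subfamily A, had the largest ratio of the ABC genes in either direction. Its signal was -2.49 and -2.65 in Met-low and -4.32 and -4.21 in Met-high. Replicates differed by far less than the populations, and the arrays did not overlap. The log2 ratio was -1.70 (standard error 0.163, 95% interval -2.11 to -1.28, adjusted p = 0.00999 from limma), which is 3.24-fold higher in Met-low. It was called with each array left out in turn, with log2 ratios from -1.77 to -1.62. Both Met-high signals were near the lowest signals well above background on those arrays, -4.96 and -5.25. The size depended on the background correction, since normexp on the median intensities gave -0.89 (limma adjusted p = 0.0292), under 2-fold. *Abca8b* lies in a run of subfamily A genes on chromosome 11, followed in the RefSeq table by *Abca8a*, *Abca9*, *Abca6* and *Abca5*. Of these only *Abca5* was above background, and its log2 ratio was -0.38 with overlapping arrays (limma adjusted p = 0.428). Its second probe gave -0.55.

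*Abcg2* encodes the breast cancer resistance protein, an efflux pump of the plasma membrane for many drugs and porphyrins. Its signal was 1.73 and 1.54 in Met-low and 0.76 and 0.79 in Met-high. Both Met-high arrays were lower than both Met-low arrays, and the Met-high arrays were nearly equal. The log2 ratio was -0.86 (standard error 0.163, 95% interval -1.27 to -0.45, adjusted p = 0.0490 from limma), 1.82-fold higher in Met-low. The adjusted p lay just inside the threshold. *Abcg2* had 1 probe, so averaging a gene's probes leaves its ratio at -0.86, and its adjusted p then moves with the fit over the other genes. Leaving out each of the 4 arrays in turn gave adjusted p-values from 0.0829 to 0.176 from limma, with ratios from -0.96 to -0.76, and averaging a gene's probes gave 0.0558.

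*Abca12* encodes the lipid transporter that loads glucosylceramides into the lamellar granules of keratinocytes. Its signal was 1.27 and 0.78 in Met-low and 2.63 and 2.39 in Met-high. The Met-low replicates differed by more than the Met-high replicates, and the arrays did not overlap. The log2 ratio was 1.48 (standard error 0.227, 95% interval 0.91 to 2.06, adjusted p = 0.0296 from limma), 2.79-fold higher in Met-high. It was called with each array left out in turn, with ratios from 1.24 to 1.73. Of the 4 keratinocyte markers, *Krt14* alone was compared, and only through the Met-high arrays, since 1 Met-low array was not well above background. It was at -5.17 and -4.45 in Met-low and at -4.24 and -4.61 in Met-high, with overlapping arrays. *Krt5*, *Krt10* and *Dsg3* were above background on 1 or 2 of the 4 arrays, between -7.40 and -2.96 over the arrays.

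**Figure D2:**
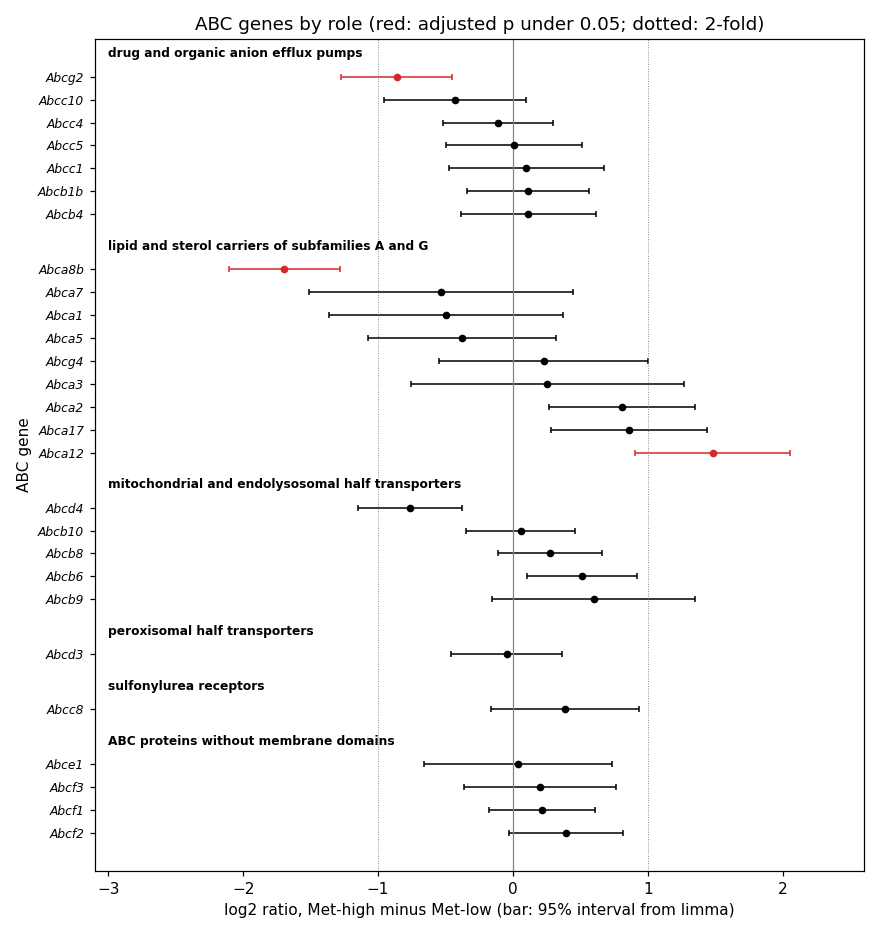
Log2 ratio (Met-high minus Met-low, horizontal axis) of 27 of the ABC genes compared, grouped by role, with the 95% interval from limma as a bar. Red marks an adjusted p under 0.05 and dotted lines mark 2-fold. *Abca8b* at -1.70, *Abcg2* at -0.86 and *Abca12* at 1.48 are red, and the intervals of most other genes cross 0.

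Among the 14 genes of drug and organic anion efflux pumps, 7 were compared and *Abcg2* was the only one called. The other 6 gave log2 ratios from -0.43 to 0.11. P-glycoprotein, the pump behind classical multidrug resistance, is encoded by *Abcb1a* and *Abcb1b* in the mouse. *Abcb1b* was at -0.97 and -0.82 in Met-low and at -0.92 and -0.65 in Met-high. Its arrays overlapped. The log2 ratio was 0.11 (standard error 0.179, 95% interval -0.34 to 0.56, adjusted p = 0.724 from limma), an interval that leaves out a 2-fold difference in either direction. *Abcb1a* was at -6.59 and -5.72 in Met-low and at -6.59 and -6.44 in Met-high, not well above background on any array, so that no ratio is given. The probe sequences were not used here, and whether the probes of these close paralogs, or those of *Abca8a* and *Abca8b*, also bind the other copy was not checked. *Abcb4*, the phospholipid floppase of bile, is the next gene after *Abcb1b* on chromosome 5, and its ratio was 0.11 with overlapping arrays.

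The multidrug resistance proteins of subfamily C export glutathione conjugates, cyclic nucleotides and other organic anions. *Abcc1*, which exports glutathione and its conjugates, had a log2 ratio of 0.10 (95% interval -0.48 to 0.68). *Abcc4*, which exports cyclic nucleotides and prostaglandins, had a ratio of -0.11 (95% interval -0.52 to 0.29). *Abcc10* had a ratio of -0.43 (95% interval -0.96 to 0.10) without overlap of the arrays, at -0.21 and -0.66 in Met-low and at -0.80 and -0.94 in Met-high. None of these was called, and for *Abcc1*, *Abcc4* and *Abcc10* the interval leaves out a 2-fold difference.

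*Abcc5*, another exporter of cyclic nucleotides, had 4 probes that did not give the same ratio. The brightest, listed for NM_013790 and printed at 10 spots, was at 0.58 and 0.24 in Met-low and at 0.55 and 0.30 in Met-high, a log2 ratio of 0.01 (95% interval -0.49 to 0.51), and the other probe for NM_013790 gave -0.07. Both probes listed for NM_176839, another RefSeq transcript of the gene, were lower in signal on both Met-high arrays. One was at -1.53 and -1.56 in Met-low and at -2.25 and -2.26 in Met-high, a ratio of -0.71 (standard error 0.151, adjusted p = 0.0800). The other was at -2.26 and -2.23 in Met-low and at -3.85 and -3.48 in Met-high, a ratio of -1.42 (standard error 0.191, adjusted p = 0.0324). These adjusted p-values are from a limma fit of every probe by itself, adjusted over all probes and chosen after the values had been seen. The difference between the probes was not tested. Which exons the probes lie in was not determined here.

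**Figure D3:**
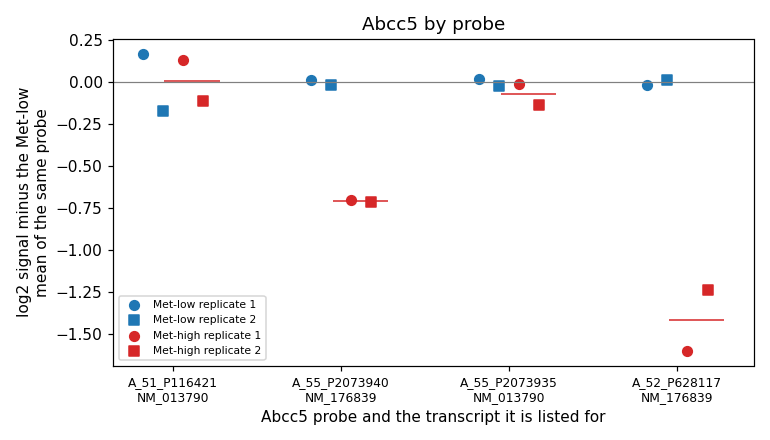
Log2 signal of the 4 *Abcc5* probes on each array, minus the Met-low mean of the same probe (vertical axis, log2 units), with the probe and the RefSeq transcript it is listed for on the horizontal axis. Circles and squares are replicates 1 and 2, blue is Met-low, red is Met-high and the red line is the Met-high mean. Both probes for NM_013790 stay near 0 and both for NM_176839 lie lower in Met-high, at -0.71 and -1.42.

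Of 19 genes on the array for lipid and sterol carriers of subfamilies A and G, 9 were compared, *Abca8b* was called lower and *Abca12* higher in Met-high, and the other 7 did not pass. *Abca2*, an endolysosomal carrier known from myelinating cells, was at -0.51 and -0.95 in Met-low and at 0.18 and -0.03 in Met-high. Its arrays did not overlap, and the ratio of 0.81 (95% interval 0.27 to 1.35) had a limma adjusted p of 0.0956. A second *Abca2* probe gave 0.61. *Abca17* was at -1.44 and -1.90 in Met-low and at -0.65 and -0.97 in Met-high, a ratio of 0.86 (95% interval 0.28 to 1.44, limma adjusted p = 0.0976). Its second probe was well above background on 1 Met-low array alone, and with the mean of both probes the ratio was -0.40. *Abca3*, the next gene on chromosome 17 and the carrier of surfactant lipids in lamellar bodies, was at 2.92 and 1.94 in Met-low and at 3.04 and 2.33 in Met-high. Its arrays overlapped, and the ratio was 0.26 (95% interval -0.76 to 1.27).

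The sterol and phospholipid exporters gave wide intervals. *Abca1*, which passes cholesterol to apolipoprotein A-I, was at -1.48 and -2.24 in Met-low and at -2.03 and -2.69 in Met-high, a log2 ratio of -0.50 (95% interval -1.37 to 0.37). *Abca7*, its close relative, was at 2.03 and 1.23 in Met-low and at 1.52 and 0.68 in Met-high, a ratio of -0.53 (95% interval -1.51 to 0.45). In both genes the replicates of each population differed by more than the population means did. *Abcg4*, a sterol exporter known from neurons, had a ratio of 0.23 (95% interval -0.55 to 1.01), and *Abcg1* of the same subfamily was not above background. For *Abca1*, *Abca7* and *Abcg4* these intervals, which treat the arrays of a population as unpaired, hold both 0 and a 2-fold difference.

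All 6 transporter genes of mitochondria and of the endolysosomal system were well above background on every array, and limma called 0 of 6. At an unadjusted p under 0.05 from limma, 1 was higher in Met-low and 1 in Met-high, where 11.9% and 14.3% of all genes were. *Abcd4*, which takes part in moving vitamin B12 out of lysosomes, came closest, at 1.25 and 1.24 in Met-low and at 0.45 and 0.51 in Met-high. Replicates differed by under 0.1 on the log2 scale and the arrays did not overlap. The log2 ratio was -0.76 (standard error 0.152, 95% interval -1.15 to -0.38, adjusted p = 0.0559 from limma). Among the other scalings, filters and estimates of the spread, the limma adjusted p was under 0.05 with quantile normalization (0.0495) and the 75th percentile over detected probes (0.0356). It was also under 0.05 with genes detected on all arrays (0.0492) and with a mean-variance trend (0.0345). With normexp (0.0505), flagged spots kept (0.0568), the authors' values (0.0554), the mean of probes (0.0620) and no filter on dim probes (0.234) it was over 0.05. With every probe by itself, a setting added after seeing the data, it was 0.0714. After removal of any array the ratio was from -0.79 to -0.73, and *Abcd4* was not called. The porphyrin transporter *Abcb6* was at 1.33 and 1.14 in Met-low and at 1.75 on both Met-high arrays, a ratio of 0.51 (95% interval 0.10 to 0.92, limma adjusted p = 0.133). The lysosomal peptide transporter *Abcb9* had a ratio of 0.60 (95% interval -0.15 to 1.35) and the mitochondrial *Abcb8* a ratio of 0.28 (95% interval -0.11 to 0.66), both without overlap of the arrays. *Abcb10*, which supports haem synthesis, was at 0.06 (95% interval -0.35 to 0.46).

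Limma called 0 peroxisomal transporter genes, and 0 had an unadjusted p under 0.05. *Abcd3*, for branched chain acyl groups and bile acid precursors, had a log2 ratio of -0.05 (95% interval -0.46 to 0.37) with overlapping arrays, and *Abcd2* was not above background. The sulfonylurea receptor *Abcc8*, a subunit of potassium channels, had a ratio of 0.39 (95% interval -0.17 to 0.94). Its second probe was not above background.

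The 4 genes of ABC proteins without membrane domains were called in neither direction, and 0 of them had an unadjusted p under 0.05 from limma. All 4 had a higher mean in Met-high, where 59.5% of all genes did, but *Abce1* had a higher mean in Met-low with quantile normalization and with the 75th percentile over detected probes. *Abce1*, which splits ribosomes after termination, was at 2.62 and 3.15 in Met-low and at 2.66 and 3.19 in Met-high, a log2 ratio of 0.04 (95% interval -0.66 to 0.73). Replicates differed more than the populations. *Abcf1*, which acts in translation initiation, had a ratio of 0.21 (95% interval -0.18 to 0.61), *Abcf2* of 0.40 (95% interval -0.03 to 0.82) and *Abcf3* of 0.20 (95% interval -0.36 to 0.76).

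The ABC family also has members whose symbols do not begin with Abc. *Tap1* and *Tap2* form the transporter that feeds peptides into the endoplasmic reticulum for presentation by MHC class I. *Tap2* was called lower in Met-high from a probe well above background on all 4 arrays, while *Tap1* entered the comparison through the Met-low arrays alone, where it is high. *Tap2* was at -2.23 and -2.25 in Met-low and at -3.29 and -3.60 in Met-high, which gave a log2 ratio of -1.20 with a standard error of 0.178 (limma adjusted p = 0.0275). *Tap1* was at -3.47 and -3.93 in Met-low and at -6.06 and -7.10 in Met-high, where it was not well above background on either array. Its Met-low mean was 2.64-fold above the mean of the lowest signals well above background on the Met-high arrays. This is not a lower limit, since the mark is set spot by spot and some brighter signals, such as *Krt5*, did not get it. The limma adjusted p of 0.0212 for *Tap1* rests on its entry through Met-low and is given as a description. *Cftr*, the chloride channel of the family, was not above background on any array. For other cell types, *Ptprc* and *Lyz2* of leukocytes, *Dcn*, *Lum* and *Pdgfra* of fibroblasts and *Cdh5* and *Tek* of endothelium were above background on no array. Other markers on the same lists were measured. Of the leukocyte markers, *Cd3e* had a log2 ratio of 0.37 (limma adjusted p = 0.516), and *Itgam* was at 0.95 and 1.54 in Met-low and at 0.45 and 0.75 in Met-high, a ratio of -0.65 without overlap (limma adjusted p = 0.189). Of the endothelial markers, *Kdr* lay between 2.43 and 3.07 on the 4 arrays with a ratio of 0.36 (limma adjusted p = 0.301), and *Pecam1* lay between -4.79 and -4.03 and was above background on 3 of the 4 arrays. Of the 5 fibroblast markers, the collagen gene *Col1a2* alone was compared, and it was lower in Met-high (log2 ratio -1.10, limma adjusted p = 0.0313). *Col1a1* was above background on 1 Met-low array. The summed level of the 5 markers, in multiples of the 75th percentile of each array, was 0.620 and 0.676 in Met-low. It was 0.298 and 0.312 in Met-high, lower there like *Abca8b*, *Abcg2*, *Tap1* and *Tap2*. *Col1a2* had the highest signal of the 5 on every array, so that the sum mainly follows this gene. The endothelial sum, in which *Kdr* was highest, went the other way, at 6.31 and 5.48 in Met-low and 8.44 and 6.72 in Met-high. The leukocyte, keratinocyte and melanocyte sums overlapped between the populations. The part of the fibroblast markers or of *Itgam* in the results for *Abca8b*, *Abcg2*, *Tap1* and *Tap2* was not tested.

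Genes of the pathways in which ABC proteins work gave 0 calls by limma at an adjusted p under 0.05. Of 13 genes compared for sterol efflux and its control by the liver X receptor (LXR), 0 were called. The median log2 ratio was 0.26, beside 0.10 over all genes. At an unadjusted p under 0.05 from limma, 4 genes were higher in Met-high, where 14.3% of all genes were. On the lower side, where 11.9% of all genes passed, the 1 gene was *Nr1h3*. *Nr1h3*, which encodes the sterol sensor LXR-alpha, was at -4.19 and -4.08 in Met-low and at -6.22 and -4.80 in Met-high. It entered the comparison through the Met-low arrays alone, since Met-high replicate 1 was not well above background. Its calculated ratio past 2-fold is not a measured size, and its place on the lower side is given as a description. Of 16 genes for xenobiotic sensing and glutathione conjugation, 0 were called, with 3 higher and 1 lower at an unadjusted p under 0.05, and the median ratio was -0.09. Its ratios ranged from -0.87 to 0.99. The 16 genes of iron-sulfur cluster and haem synthesis, the 16 of peroxisome import and beta-oxidation and the 6 partners of ribosome recycling gave 0 calls each, with medians of 0.21, 0.16 and 0.12. At an unadjusted p under 0.05, 4, 1 and 1 of these genes were higher and 1, 0 and 1 lower in Met-high, to be read against the same 14.3% and 11.9% of all genes.

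**Figure D4:**
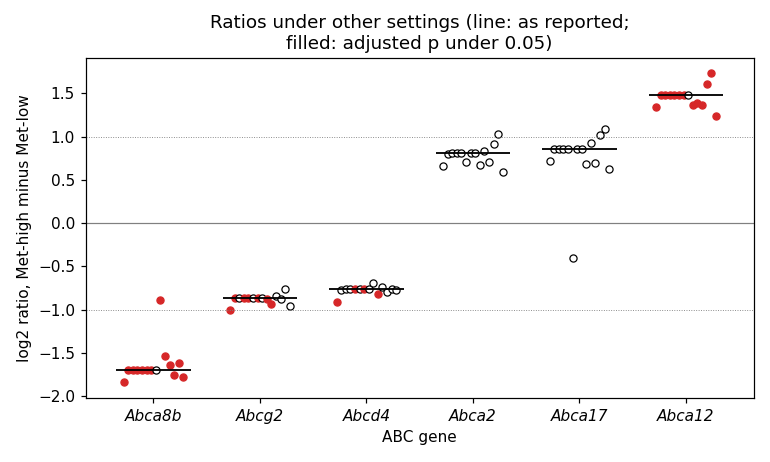
Log2 ratio (vertical axis, Met-high minus Met-low) of 6 ABC genes without overlap between populations under each other processing setting (points, without the replicate block) and as reported (line). Filled red points have an adjusted p under 0.05, and dotted lines mark 2-fold. *Abca12* and *Abca8b* stay filled except without a filter on dim probes, *Abcg2* is filled in some settings, and 1 point of *Abca17*, the mean of its probes at -0.40, lies on the other side of 0.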

How the data were processed

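RNA of 2 Met-low and 2 Met-high samples was measured with Cy3 on Agilent mouse arrays. Deposited by the authors are Feature Extraction files, which give for each spot a linear intensity after background correction and mark spots that are outlying, saturated or well above background, and a table of log2 values that they normalized to the 75th percentile of each array and to the median of each probe. Per the file headers Agilent Feature Extraction was at version 11.0.1.1, and the submitters' processing notes name 10.7.3.1.

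The processed intensity was floored at 0.01, put on the log2 scale and centred by subtracting the array's 75th percentile, calculated without control spots. Between 207 and 232 flagged spots per array were left out, spots of a probe were averaged, and 27427 of 39429 probes matched a symbol of the RefSeq table for GRCm38.p6 by accession. Each gene was represented by its brightest probe over the 4 arrays. A gene was kept if both Met-low or both Met-high arrays measured it well above background. For the 11957 genes kept, the populations were compared with limma 3.58.1 (lmFit, eBayes; R 4.3.3), with Benjamini-Hochberg adjustment over all of them and a threshold of 0.05, and all p-values are two-sided. A permutation of 2 arrays against 2 cannot give an exact p under 0.333, so that none is given. The fit was tested on simulated data.

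Some genes are not reported here. The other ABC genes are named, and values on every array are given for those called, those past 2-fold and *Abcb1a*, *Abcb1b* and *Abcg2*, and in addition for genes whose arrays or probes are described. Genes of related pathways are named if called or past 2-fold. The members and lists were chosen with earlier results of these data known. Alternatives in scaling were normexp (offset 50) on median intensities, quantile normalization, the 75th percentile over detected probes and the authors' log2 table. Those in the genes and spots used were the filter on dim probes dropped or tightened, use of flagged spots and averaging of a gene's probes. For the test they were a mean-variance trend, the replicate number as a block, each array left out in turn and 2-fold required in addition to the adjusted p. Student's t-test was another, which the paper names for comparing groups, while its array genes were selected by a 2-fold difference. Every probe by itself was added after seeing the data. With 1 slide, no slide block could be fitted. Promoter sequences were taken from RefSeq where listed. Figures were made with Python 3.11.15 and matplotlib 3.10.9.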

Additional observations from a re-analysis of the deposited data

How the results depend on the processing

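*Abca8b* and *Abca12* were called under every alternative with all 4 arrays, except without a filter on dim probes and in Student's t-test. Without that filter their adjusted p was 0.0873 and 0.145 from limma. None of the 3 called genes changed direction. *Abcg2* was lost without the filter (0.214), with the mean of a gene's probes (0.0558), with every probe by itself (0.0645) and with each array left out. ABC genes called higher in Met-low were 2 as reported, 0 without the filter, 1 with the mean of probes, 1 with a 2-fold threshold added, 0 in the t-test, 1 with each array left out and 5 with the replicate block. Those called higher in Met-high were 1 as reported, 0 without the filter, 0 in the t-test, 1 with each array left out and 5 with the block. The Met-low count was 3, with *Abcd4* added, under quantile normalization and the 75th percentile over detected probes. It was also 3 with genes detected on all arrays and with a mean-variance trend. At an unadjusted p under 0.05 the fit without the filter held 3 and 3 ABC genes and the t-test 3 and 3. Related genes called were 2 as reported, *Tap1* and *Tap2*. *Tap1* entered through the Met-low arrays alone, so this count is a description. The count was 1 with normexp and 1 with genes detected on all arrays, a setting that leaves *Tap1* out. It was 3 with the 75th percentile over detected probes and 4 with a trend. It was 0 without the filter (12 at an unadjusted p under 0.05 from limma), 0 in the t-test (13 at an unadjusted p under 0.05) and 23 with the block. ABC genes past 2-fold on the Met-low side, 1 as reported, were 0 with normexp, 2 with the 75th percentile over detected probes, 3 without the filter and 1 with each array left out, and on the Met-high side, 1 as reported, 1 to 3 with an array left out. Over all genes, 454 and 227 calls became 7 and 0 without the filter (1463 and 1196 at an unadjusted p under 0.05), 614 and 145 with detected probes, 538 and 392 with a trend, and 0 and 1 in the t-test (944 and 1265 at an unadjusted p under 0.05).

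The labels number the replicates of both populations 1 and 2, but do not say that a number marks a shared culture or day. Arrays of the same number deviated together from their population means (r = 0.54 over genes). With the replicate number as a block, limma called 1582 genes (13.2% of all compared) higher in Met-low and 1968 (16.5%) in Met-high. Of the 29 ABC genes, 5 were called on each side. They were *Abca1*, *Abca7*, *Abca8b*, *Abcd4* and *Abcg2* on the Met-low side and *Abca2*, *Abca12*, *Abca17*, *Abcb6* and *Abcb9* on the Met-high side.

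Of the genes reported here, some that were not called changed direction in places. With the 75th percentile over detected probes the log2 ratio was -0.0857 for *Abcb10*, -0.0332 for *Abcb1b*, -0.0315 for *Abcb4*, -0.0457 for *Abcc1*, -0.14 for *Abcc5* and -0.11 for *Abce1*. With normexp it was -0.0058 for *Abcc5* and 0.0152 for *Abcd3*, with quantile normalization -0.0016 for *Abcc5* and -0.11 for *Abce1*, and with the mean of probes -0.40 for *Abca17* and -0.55 for *Abcc5*. With an array left out, the ratio ranged from -0.23 to 0.75 for *Abca3*, -0.0253 to 0.14 for *Abcb10*, -0.0229 to 0.25 for *Abcb1b*, -0.0750 to 0.30 for *Abcb4*, -0.12 to 0.31 for *Abcc1*, -0.16 to 0.18 for *Abcc5*, -0.15 to 0.0550 for *Abcd3*, -0.23 to 0.30 for *Abce1*, -0.0194 to 0.42 for *Abcf3* and -0.20 to 0.65 for *Abcg4*. A population left with 1 array was given the spread of the other population. The fit without the filter tested 20832 genes in place of 11957, and the causes of the other changes were not tested. Signal over background limits 20 of the 49 ABC genes, which were not compared.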
